A study of Mus musculus with 15 samples.

Results

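Deletion of Hdac1 and knockdown of Hdac2 were combined in mouse embryonic fibroblasts in a 2-by-2 design, and the quantity described here is their interaction. For each gene the deletion effect measured with the scrambled micro-RNA was subtracted from the deletion effect measured with the knockdown. It was taken from 12 of the 15 arrays of the study, the 4 groups of 3 whose titles name floxed Hdac1. All cells were primary male fibroblasts that carried retroviruses for Cre-ERT2, a recombinase switched on by tamoxifen, and for a micro-RNA hairpin. The control group was Hdac1 fl/fl with a scrambled micro-RNA and ethanol. The knockout group (KO) was Hdac1 fl/fl with the scrambled micro-RNA and tamoxifen at 200 nM. The knockdown group (Kd) was Hdac1 fl/fl with the micro-RNA against Hdac2 and ethanol, and the group with both was Hdac1 fl/fl with the micro-RNA against Hdac2 and tamoxifen at 200 nM. The remaining 3 arrays, Hdac1 +/+ cells with tamoxifen, entered the model only as a source of spread between arrays, and the labels do not name the viruses in those cells. Within the floxed cells tamoxifen and deletion cannot be told apart, and the interaction removes an effect of tamoxifen only as far as that effect is the same in scrambled and knockdown cells.

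The proteins encoded by Hdac1 and Hdac2 are close relatives that take acetyl groups off histone tails. Both sit in the Sin3, NuRD and CoREST complexes, where they are known mainly as corepressors, and either can occupy the place of the other. In fibroblasts they are known to be needed for proliferation and to hold down Cdkn1a, which encodes the cyclin-dependent kinase inhibitor p21. A difference between the 2 deletion effects is called synergy here when the cells with both perturbations moved away from each single perturbation in the direction of the interaction and no single effect that passed the test pointed the other way, so that a gene in synergy can carry a single effect of the other sign that did not pass.

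The promoters of 5 genes on which the results turn are shown first, as the 250 bases before the start of the RefSeq gene, 5′ to 3′ on the strand of the gene (GRCm38.p6). Bex1 and Itih5 are shown because their interactions were among the highest of genes whose window holds the motif searched. Ncapg and Aurka stand for the mitotic genes and Cdc6 for the replication genes, whose interactions were below 0. A gene was taken only when it had a single promoter entry and its window held a motif searched. The marked motifs therefore follow from the choice. Genes with interactions farther from 0 were passed over, among them Igf2, Mgst1 and Mcm10. Capitals mark the motif searched in each, which was the GC box GGGCGG for Bex1 and Itih5, the CHR element (TTTGAA or TTCGAA) and CCAAT for Ncapg and Aurka, and the E2F site (TTTCCCGC, TTTGGCGC or TTTCGCGC) for Cdc6, each read on both strands. The Ncapg window holds both of its motifs, and the Aurka window holds CCAAT and no CHR element.
Bex1, chrX:136215514-136215763, minus strand: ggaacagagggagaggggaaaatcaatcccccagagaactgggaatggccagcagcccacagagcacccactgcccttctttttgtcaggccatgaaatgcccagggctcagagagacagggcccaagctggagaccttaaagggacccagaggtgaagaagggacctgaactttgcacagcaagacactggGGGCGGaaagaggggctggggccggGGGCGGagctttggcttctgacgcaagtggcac
Itih5, chr2:10153293-10153542, plus strand: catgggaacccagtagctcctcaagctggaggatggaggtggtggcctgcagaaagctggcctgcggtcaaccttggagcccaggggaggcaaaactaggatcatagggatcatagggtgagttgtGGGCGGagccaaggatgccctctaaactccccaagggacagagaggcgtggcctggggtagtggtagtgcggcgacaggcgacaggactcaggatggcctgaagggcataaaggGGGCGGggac
Ncapg, chr5:45669675-45669924, plus strand: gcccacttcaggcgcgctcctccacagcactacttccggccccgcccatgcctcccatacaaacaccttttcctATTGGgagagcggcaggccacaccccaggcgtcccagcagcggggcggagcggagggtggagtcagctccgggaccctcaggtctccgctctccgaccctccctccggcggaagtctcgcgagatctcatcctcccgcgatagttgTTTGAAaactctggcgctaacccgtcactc
Aurka, chr2:172370571-172370820, minus strand: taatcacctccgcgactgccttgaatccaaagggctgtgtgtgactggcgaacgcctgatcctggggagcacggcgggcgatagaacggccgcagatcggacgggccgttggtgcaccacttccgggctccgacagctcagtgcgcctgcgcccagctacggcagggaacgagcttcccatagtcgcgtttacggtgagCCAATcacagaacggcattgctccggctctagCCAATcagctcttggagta
Cdc6, chr11:98907901-98908150, plus strand: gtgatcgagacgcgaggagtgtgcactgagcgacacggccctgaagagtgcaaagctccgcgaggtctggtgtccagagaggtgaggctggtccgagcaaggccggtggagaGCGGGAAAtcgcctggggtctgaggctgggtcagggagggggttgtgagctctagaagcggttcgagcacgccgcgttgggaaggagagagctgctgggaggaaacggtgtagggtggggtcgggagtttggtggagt
The Bex1 window holds 4 CpG dinucleotides, the Itih5 window 7, and the windows of Cdc6, Ncapg and Aurka 18, 20 and 23.

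A promoter entry was found for 10734 of the 13382 genes tested, with 13699 entries in all. Promoters are counted per gene, and a gene with several entries holds a motif when any entry does. Genes with more entries therefore have more chances to hold one. The share of these genes that holds each motif is given as the background. The CHR element lay in 18 of 42 promoters of mitotic genes with an interaction below 0 (42.9%), against 14.9% of all promoters. CCAAT lay in 33 of these 42 (78.6%), against 40.2% of all. The E2F site lay in 10 of 37 promoters of replication genes with an interaction below 0 (27%), against 3.32% of all. Among genes with synergy the GC box was in 70.5% of promoters of those that were higher and in 63.2% of those that were lower, against 61.8% of all. These shares describe letters in a window and were not tested.

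The targeted genes were read first. Hdac1 was measured at 3499, 3498 and 3673 on the control arrays, 155, 144 and 183 in KO, 3841, 3757 and 3966 in Kd, and 106, 158 and 203 with both. Its log2 change on deletion was -4.34 ± 0.15 in scrambled cells and -4.54 ± 0.15 in knockdown cells (SE), and the interaction of -0.19 (95% interval -0.63 to 0.25) did not pass the threshold. Hdac2 was measured at 6536, 7354 and 7264 in control, 6492, 7308 and 7702 in KO, 1028, 940 and 908 in Kd, and 1030, 1013 and 1031 with both. Its interaction of 0.08 (95% interval -0.15 to 0.30) did not pass either, so that neither target changed by a detectably different amount when the other was also reduced. Values here are deposited linear intensities, and effects are differences of log2(intensity + 16), which understates changes of dim genes.

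Arrays of a group correlated at 0.997 to 0.999 and arrays of different groups at 0.970 to 0.997 over log2 values. The 3 arrays with both had medians of 29.1 to 30.7 and the other 12 medians of 24.1 to 28.6. Within KO, replicate 1 was the lowest array for 28 of 30 p53 targets and 47 of 53 mitotic genes, and replicate 3 the highest for 26 and 49 of them. Within the group with both, replicate 2 was the highest array for 51 of 53 mitotic genes and 48 of 48 replication genes. It had the highest median of that group (30.7) and was highest for 8 of 27 lysosome and autophagy genes. The labels do not say whether replicates were grown as separate cultures, so a p-value here reflects array-to-array spread that could be purely technical.

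The effect of Hdac1 deletion was larger in knockdown cells for most genes whose 2 deletion effects differed. The interaction passed an adjusted p of 0.05 in limma for 5749 of 13382 genes, 43% of those tested. It was above 0 for 3453 (25.8%) and below 0 for 2296 (17.2%). An unadjusted p under 0.05 was reached by 6631 genes. Deletion changed 3240 genes in scrambled cells (24.2%) and 8479 in knockdown cells (63.4%), and knockdown changed 1417 genes in ethanol-treated cells (10.6%) and 7604 in tamoxifen-treated, deleted cells (56.8%, 36.2% higher). With both, 8766 genes differed from control (65.5%, 46.2% higher). For 5040 genes (37.7%) the range of the array differences in knockdown cells did not overlap that in scrambled cells, and 4861 of these were called. A change of at least 2-fold on deletion was reached by 99 higher and 21 lower genes in scrambled cells and by 1433 and 538 in knockdown cells. The interaction itself was at least 2-fold for 985 genes above 0 and 468 below, and at least 4-fold for 232 and 59.

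The balance of the 2 directions depends on how the arrays are scaled. With quantile normalization 3233 genes were above 0 and 3455 below, so that 48.3% of the calls lay above 0 rather than 60.1%, and centring each array on its median gave 3192 and 3348. In the deposited scale, of the 2677 genes in the lowest of 5 brightness classes 396 were above 0 and 24 below. Over all genes the median interaction was 0.06 and the SD 0.685, and the median standard error was 0.123.

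Sorting the 5749 genes by the effect of deletion gave 5140 whose effect was larger in knockdown cells (89.4%). In 3702 of them the effect was gained, that is, called in knockdown cells and not in scrambled cells (27.7% of all genes tested), and in 1438 it was called in both and larger in knockdown cells (10.7%). The effect was lost in knockdown cells for 219 genes (1.64%) and weakened for 27 (0.202%), which is the buffered class of 246. It had opposite signs in the 2 backgrounds for 244 genes (1.82%), and 119 fell in no class. The small classes depend on the arrays and on the scaling. The buffered class held 428 genes without KO replicate 1 and 108 with array weights, and the reversals numbered 93 with array weights and 386 with quantile normalization. The classes use the same arrays as the interaction and are a description with no test. At the threshold itself lay Kdm3b (0.27) and Tube1 (-0.33), each with an adjusted p of 0.0498, and just outside it Chmp7 (0.29) and Zfp35 (-0.25), each at 0.05.

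**Figure D1:**
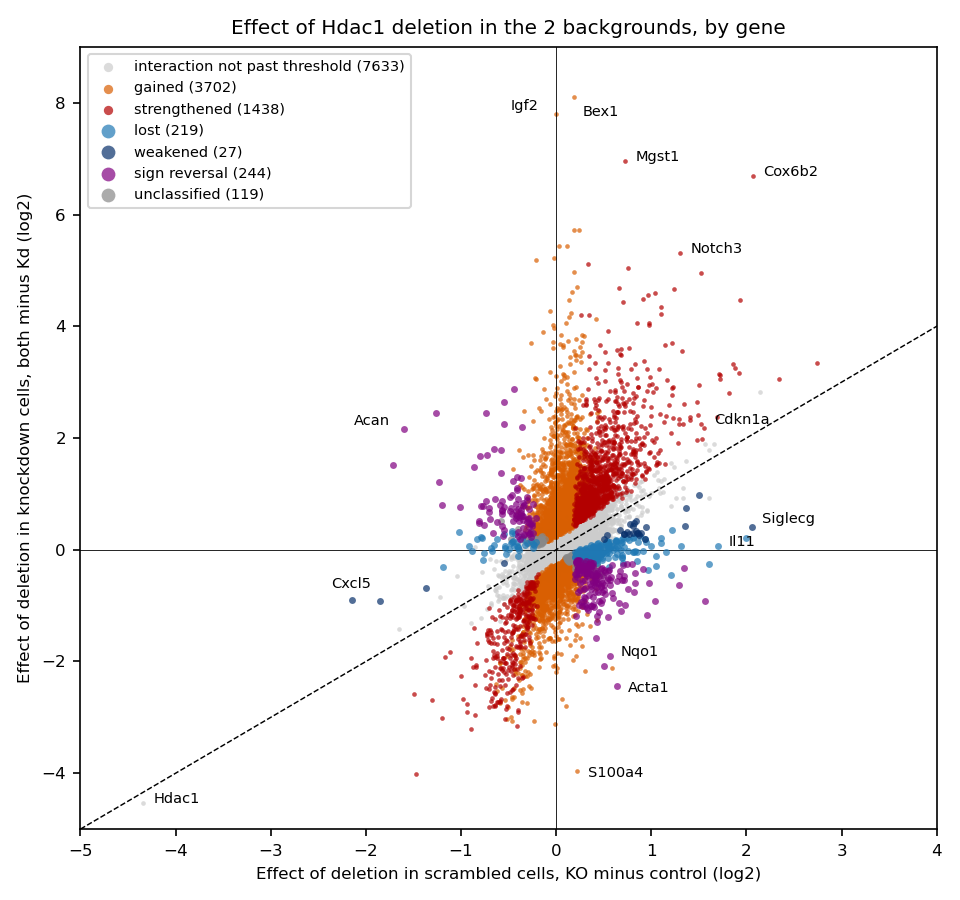
Effect of Hdac1 deletion in scrambled cells (horizontal, log2) against knockdown cells (vertical, log2), 1 point per gene tested, coloured by class. On the dashed line the 2 effects are equal. The 3702 gained genes form a vertical band near 0 on the horizontal axis, and Bex1 and Igf2 lie at its upper end.

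Sorting by both axes put 4712 genes in synergy (82% of those called), 3058 above 0 and 1654 below. A single effect of deletion was opposed for 319 genes, a single effect of knockdown for 241, and 2 single effects of 1 sign for 121. The remaining 356 fitted none of these patterns. With quantile normalization 1 single effect was opposed for 913 genes rather than 560, and 2 single effects of 1 sign were opposed for 183 genes without KO replicate 1, 72 without control replicate 1 and 69 on the linear scale. Among called genes the group that stood apart from the other 3 was the one with both for 5021 (87.3%), Kd for 331, KO for 279 and control for 118, where over all genes tested the group with both stood apart for 65.9%. The median gene in upper synergy changed by 0.16 on deletion alone, 0.06 on knockdown alone and 0.95 with both. The median gene in lower synergy changed by -0.07, 0.01 and -0.65 in the same order.

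**Figure D2:**
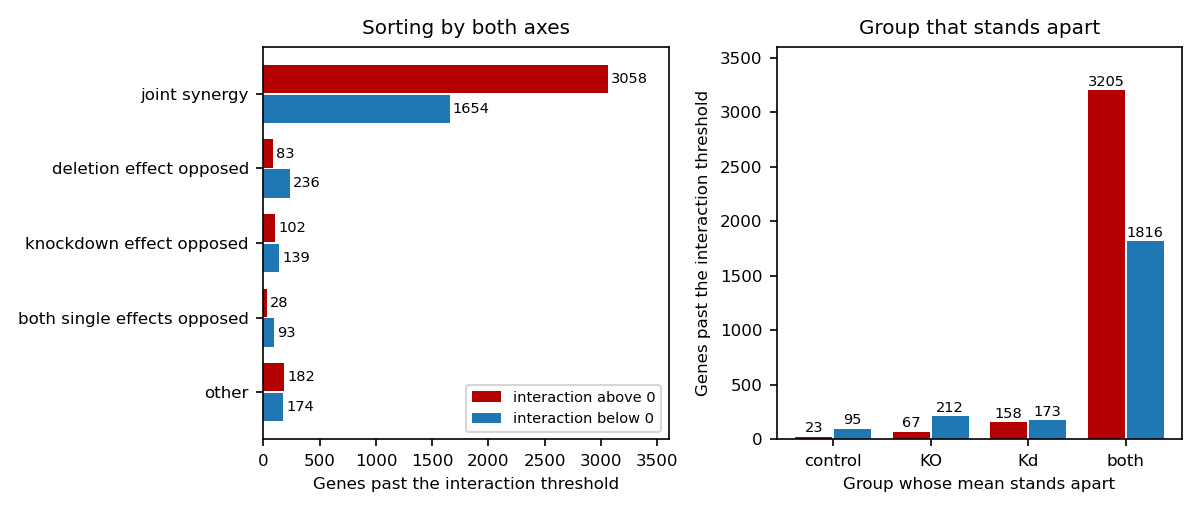
Number of genes past the interaction threshold by pattern on both axes (left) and by the group whose mean stood apart from the other 3 (right), with interactions above 0 in red and below 0 in blue. Synergy holds 3058 and 1654 genes, and the group with both stands apart for 3205 and 1816.

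The highest interactions were those of genes that were dim in control, KO and Kd and bright with both. A probe set was kept when 3 arrays exceeded the 40th percentile of their own array, which lay between 18.8 and 22.5, and 342 of the genes tested passed only through the arrays with both. Of these 188 were called above 0 and 0 below, which the filter favours, and among the other 13040 genes 3265 (25%) were called above 0. Where a group lies under that level its log2 effects depend on the pseudocount, and the mean with both is also given over the level itself, as a lower bound. Bex1, a small brain-expressed X-linked adaptor protein, was measured at 16, 26.4 and 21.3 in control, 17.7, 27.9 and 34.7 in KO, 41.1, 49.4 and 50.3 in Kd, and 19670, 13580 and 19220 with both. The arrays with both stood far above all others, the Kd arrays lay slightly above control and KO, and control and KO overlapped. Its interaction was 7.91 ± 0.22 (log2, SE; adjusted p = 3.81e-13), and the change with both was 8.87 where the sum of the single effects was 0.95. For Bex1 only 2 of 3 control and 2 of 3 KO arrays exceeded the filter level. The mean with both was at least 781-fold above control and at least 650-fold above KO. Igf2, an imprinted fetal growth factor, was measured at 71.2, 47.5 and 45 in control, 44.3, 64.2 and 54.1 in KO, 75.3, 73.8 and 59.9 in Kd, and 21070, 17010 and 19180 with both. All 3 other floxed groups overlapped, and the interaction was 7.80 ± 0.25 (adjusted p = 1.59e-12). Mgst1, a microsomal glutathione transferase, was measured at 16, 15 and 15.6 in control, 32.4, 34 and 43.2 in KO, 22.9, 20.3 and 16.7 in Kd, and 4545, 4480 and 4385 with both. Here KO lay above control without overlap, deletion alone gave 0.73, and deletion in knockdown cells gave 6.97. No control array of Mgst1 exceeded the filter level, and the mean with both was at least 234-fold above control and at least 216-fold above Kd.

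Itih5, a secreted inter-alpha-trypsin inhibitor heavy chain, was measured at 17.8 to 30.3 on the 9 arrays of control, KO and Kd and at 2331, 1845 and 2358 with both (interaction 5.54 ± 0.16, at least 85.9-fold above each other floxed group). Gpx3, the secreted glutathione peroxidase, followed the same pattern with an interaction of 5.50 ± 0.14, as did Sfrp1, a secreted Wnt antagonist (5.40 ± 0.21), Bex2 (5.40 ± 0.10) and Clca3a2 (5.33 ± 0.25). In each of these the 3 arrays with both lay above all 9 others. Prss12, a neuronal serine protease, had 4.78 and Syt17, a synaptotagmin, 4.29, and both were already called on deletion alone, at 0.34 and 0.76. Cox6b2, the testis form of a cytochrome c oxidase subunit, was measured at 58.9 to 81.4 in control, 288 to 454 in KO, 53.4 to 67.5 in Kd and 7743 to 8239 with both. Its deletion effect was 2.07 in scrambled cells and 6.68 in knockdown cells, so that KO stood above control and the cells with both stood above KO.

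**Figure D3:**
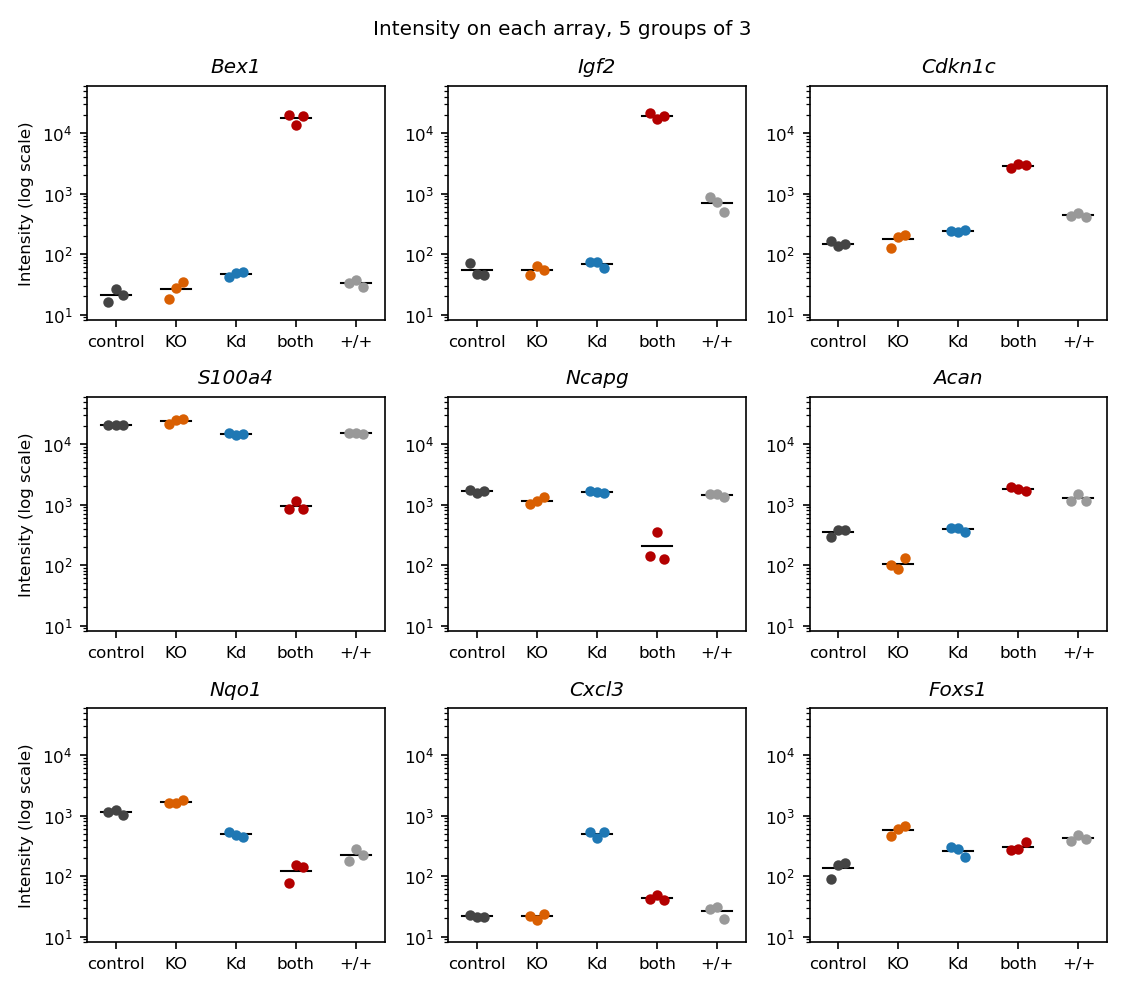
Intensity on every array (log axis) for 9 genes, with the 3 points of each group offset sideways and a bar at the group mean, including the Hdac1 +/+ cells with tamoxifen. Bex1, Igf2 and Cdkn1c rise in the cells with both, S100a4 and Ncapg fall there, and Acan, Nqo1, Cxcl3 and Foxs1 show a single effect that is reversed or undone.

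Genes of cell division fell further on deletion in knockdown cells than in scrambled cells. Of 53 mitosis and G2 genes tested, 52 had an interaction below 0 and 1 above it, Pttg1 (0.39, securin, named after its value was seen). The shares over all genes were 17.2% below 0 and 25.8% above. Over the list the median interaction was -1.69, against 0.06 over all genes tested, whose median effect of deletion was 0.08 in scrambled and 0.13 in knockdown cells. The median effect of deletion was -0.39 in scrambled cells and -2.13 in knockdown cells, and knockdown alone lowered 0 of the 53 and raised 1 (over all genes it lowered 3.04% and raised 7.55%). Deletion alone lowered 22 of them (over all genes 4.66%) and deletion in knockdown cells 52 (20.5%). Ncapg, a condensin subunit that compacts chromosomes, was measured at 1734, 1580 and 1672 in control, 1036, 1136 and 1312 in KO, 1665, 1625 and 1550 in Kd, and 139, 352 and 125 with both. KO lay below control without overlap although deletion alone did not pass the test (-0.52, adjusted p = 0.127), and the arrays with both lay below all others. Its interaction was -2.51 ± 0.33. Aurka, the mitotic kinase Aurora A, had -2.44 ± 0.21, Hmmr, a spindle protein, -2.36 ± 0.28, and Cdca8, a subunit of the chromosomal passenger complex, -2.31 ± 0.26. Replicate 2 was the highest array with both for 51 of the 53, so leaving it out could only lower their interactions. Without it 52 mitotic genes were below 0 and the median was -1.94. Without replicate 3 of the group with both, 50 mitotic genes were below 0 and the median was -1.50.

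DNA replication genes moved in the same direction. All 45 of the 48 tested that passed the threshold were below 0, where 17.2% of all genes were. The median interaction over the list was -1.16, and the median effect of deletion was -0.39 in scrambled and -1.57 in knockdown cells. Of these 45, 35 were lowered by deletion in both backgrounds and 10 only passed the test in knockdown cells. Cdc6, which loads the replicative helicase, was measured at 1724, 1913 and 1923 in control, 1407, 1540 and 1685 in KO, 1829, 1675 and 1445 in Kd, and 268, 496 and 164 with both. KO lay below control, Kd overlapped both, and the interaction was -2.22 ± 0.34. Mcm10, another helicase factor, had -2.32 ± 0.22, Clspn, the checkpoint adaptor claspin, -2.14 ± 0.29, and Cdc45, a part of the active helicase, -2.13 ± 0.20. Replicate 2 was the highest array with both for all 48, so leaving it out could only lower their interactions. Without it 45 replication genes were below 0 and the median was -1.26. Without replicate 3 of the group with both, 42 replication genes were below 0 and the median was -1.05.

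Of 30 CDK inhibitors, cyclins and pocket proteins, 10 were above 0 and 9 below, where over all genes 25.8% were above and 17.2% below. Both directions held cyclins and pocket proteins. Cdkn1c, an imprinted gene for the CDK inhibitor p57, was measured at 166, 135 and 146 in control, 128, 191 and 209 in KO, 243, 231 and 252 in Kd, and 2663, 3069 and 2950 with both. Control and KO overlapped, Kd was higher by 0.65, and the interaction was 3.29 ± 0.18 (adjusted p = 9.45e-10). Cdkn1a, the gene for p21, was measured at 2786, 2920 and 2727 in control, 7432, 8638 and 8855 in KO, 2708, 2625 and 2603 in Kd, and 11560, 11970 and 12490 with both. Deletion alone gave 1.55 of the 2.09 seen with both, and the interaction was 0.62 ± 0.12 (adjusted p = 0.000401). Cdkn2b, for the inhibitor p15, had 1.99 ± 0.21, Rb1, for the retinoblastoma protein, 1.03 ± 0.12, and Cdkn1b, for p27, 0.42 ± 0.10, which did not pass with the mean of probe sets (adjusted p = 0.164). Rbl2, a pocket protein (1.47 ± 0.14), and Ccnd3, cyclin D3 (0.84 ± 0.11), named after their values were seen, were above 0. Rbl1, the pocket protein p107, had -2.50 ± 0.10, Ccne2, cyclin E2, -1.92 ± 0.17, and Ccna2, cyclin A2, -1.56 ± 0.21. Ccnd1, cyclin D1, was called on deletion in both backgrounds, at 0.64 and 0.73, and its interaction of 0.09 (95% interval -0.15 to 0.33) did not pass. Its other probe sets gave -0.45 and 0.47, so the probe sets of this gene disagree. The interactions of Ccne1, cyclin E1 (0.09, -0.18 to 0.37), and Cdkn2a (0.83, -0.48 to 2.13) did not pass either.

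Targets of the tumour suppressor p53 were raised by deletion in both backgrounds, more so in knockdown cells. Of 30 tested, 23 rose on deletion alone (over all genes 19.6%) and 23 in knockdown cells (42.9%), and 18 had an interaction above 0 (25.8%). The median effect of deletion was 0.63 in scrambled and 1.09 in knockdown cells, and the median interaction was 0.54. Mdm2, the ligase that limits p53, was measured at 1051, 1058 and 973 in control, 2529, 2781 and 2963 in KO, 1004, 927 and 964 in Kd, and 4986, 5204 and 5014 with both (interaction 0.96 ± 0.10). Control and Kd overlapped, KO lay above them and the cells with both lay above KO. Fas, the death receptor, had 1.36 ± 0.14, Ddit4l, an inhibitor of mTOR signalling, 1.25 ± 0.18, and Pmaip1, the BH3 protein Noxa, 0.99 ± 0.19. Perp, a p53 target of cell junctions, was lowered by knockdown alone (-1.04) and raised by deletion alone (0.95), and its interaction was 1.88 ± 0.11. The 3 members below 0 were Gtse1 (-0.68), Tnfrsf10b (-0.43) and Dram1 (-0.34), named after their values were seen.

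Lysosome and autophagy genes were raised by deletion in both backgrounds, more so in knockdown cells. Of 27 tested, 25 were above 0 and 0 below (25.8% and 17.2% over all genes). Deletion alone had raised 24 of the 27 already, and the median effect of deletion was 0.39 in scrambled and 0.95 in knockdown cells. Gaa, the lysosomal enzyme that degrades glycogen, was measured at 1506, 1513 and 1612 in control, 1862, 2143 and 2420 in KO, 1451, 1548 and 1478 in Kd, and 6361, 5722 and 6705 with both. Control and Kd overlapped, KO lay above them and the arrays with both lay above KO. Its interaction was 1.59 ± 0.12, that of Neu1, a lysosomal sialidase, 1.96 ± 0.27, and that of Ppt1, a palmitoyl thioesterase, 1.04 ± 0.12.

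Genes of MHC class I, which presents peptides to T cells, lay mainly above 0. Of 13 genes tested, 11 were above 0 and 1 below, Erap1 (-0.97, an aminopeptidase that trims peptides, named after its value was seen), and the median was 1.20. Over all genes 25.8% were above 0 and 17.2% below. Deletion alone had raised 4 of the 13 and knockdown alone 3, against 19.6% and 7.55% of all genes. H2-K1, a class I heavy chain, was measured at 1697, 1680 and 1629 in control, 1574, 1547 and 1831 in KO, 1712, 1696 and 1729 in Kd, and 7286, 6718 and 7151 with both. The first 3 groups overlapped and the fourth lay above them, with an interaction of 2.05 ± 0.10 (adjusted p = 1.49e-10). H2-D1, whose sequence is close enough to H2-K1 that probe sets may read both, had 1.98 ± 0.10. Psmb8, a subunit of the immunoproteasome, had 3.29 ± 0.14, and Tap1, which carries peptides into the endoplasmic reticulum, 2.51 ± 0.18. Interferon-stimulated genes were more mixed, with 16 of 29 above 0 and 7 below. Among the 16 were 2 that passed the filter only through the arrays with both. Ifitm1, a membrane protein that limits virus entry, had 3.96 ± 0.17 and Isg20, an exonuclease, -2.06 ± 0.16.

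Genes of the extracellular matrix were mostly above 0, where over all genes 25.8% were above and 17.2% below. The share of proteoglycan and elastic fibre genes below 0 was close to that over all genes. Of 27 collagens 15 were above 0 and 1 below, Col6a2 (-0.40, named after its value was seen), and of 28 proteoglycan and elastic fibre genes 19 were above and 4 below, Loxl4 (-1.86), Aspn (-1.81), Omd (-1.40) and Prelp (-0.49), named after their values were seen. Col14a1, a fibril-associated collagen, was measured at 12.8 to 20.5 on the 9 arrays of control, KO and Kd and at 1162, 1477 and 1322 with both. It passed the filter only through the arrays with both, which lay at least 64-fold above each other floxed group, and its fitted interaction was 5.25 ± 0.11. Of the collagens 1, Col14a1, and of the proteoglycan and elastic fibre genes 2 were tested only because of those arrays, and all 3 were called above 0. Dcn, the collagen-binding proteoglycan decorin, was measured at 25.1, 19.9 and 22.3 in control, 27.1, 42.7 and 42.2 in KO, 294, 311 and 289 in Kd, and 4297, 3600 and 4041 with both. It rose on knockdown alone by 3.03 and on deletion alone by 0.46, and the cells with both exceeded the sum by 3.21 ± 0.17. Mfap2, a microfibril protein, had 2.55 ± 0.13. Col3a1, a fibrillar collagen, fell on deletion alone (-0.57) and rose in knockdown cells (0.43).

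In the lists of growth factor, Wnt and lipid genes more members were called above 0 than below, where over all genes the shares were 25.8% and 17.2%. Members that passed the filter only through the arrays with both numbered 1 in the insulin-like growth factor list, 3 in the Wnt list and 1 in the adipogenic list, and all 5 were called above 0. Of 15 genes of the insulin-like growth factor axis 10 were above 0 and 1 below, Igfbp6 (-1.08, named after its value was seen). Igf1 was measured at 20.9 to 44.7 on the 9 arrays of control, KO and Kd and at 1239, 384 and 809 with both, with replicate 2 of the group with both the lowest of its 3 arrays (interaction 4.04 ± 0.41). Of 32 Wnt pathway genes 19 were above 0 and 1 below, Rspo2 (-0.26, named after its value was seen). They included secreted antagonists, Sfrp1 (5.40) and Dkk2 (3.12, at least 13-fold above the filter level), and the agonist Rspo3 (3.56), so that the list holds genes of opposite action. Notch3, a receptor of perivascular cells, was measured at 20.2 to 32.4 in control, 72 to 110 in KO, 30.8 to 36.3 in Kd and 1785 to 2069 with both, with an interaction of 4.02 ± 0.17. Of 24 genes of adipogenesis and lipid handling 11 were above 0 and 1 below, among them Lpl, lipoprotein lipase (4.45 ± 0.20), Apoe (4.02 ± 0.13, at least 23.9-fold above the filter level) and Abca1, a cholesterol exporter (3.70 ± 0.30). Of 33 genes of TGF-beta and BMP signalling 15 were above 0 and 5 below, Id1, Id2, Id3, Inhba and Smad7, named after their values were seen, and the share below 0 was close to that over all genes. Bmp4 was raised by both single perturbations (0.65 and 1.07) and had an interaction of 1.82 ± 0.19, whereas the BMP antagonists Fst (1.84), Chrd (1.76) and Grem1 (1.90) were above 0 as well.

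Imprinted genes, which are expressed from 1 parental copy, and neuronal genes also lay mainly above 0. Of 27 imprinted genes tested, 17 were above 0 and 2 below, Peg12 (-0.41) and Sgce (-0.37), named after their values were seen. Of 27 neuronal genes 15 were above 0 and 0 below. The shares over all genes were 25.8% above 0 and 17.2% below. Of these lists 2 imprinted and 3 neuronal genes passed the filter only through the arrays with both. Of these, 2 imprinted and 2 neuronal genes were called above 0. Uchl1, a neuronal ubiquitin hydrolase, was measured at 112 to 113 in control, 230 to 346 in KO, 97 to 116 in Kd and 1504 to 1646 with both (2.51 ± 0.17). Tubb3, neuronal beta tubulin, was measured at 534, 545 and 504 in control, 321, 296 and 476 in KO, 1078, 1034 and 947 in Kd, and 1751, 1808 and 1663 with both. Deletion lowered it in scrambled cells (-0.54) and raised it in knockdown cells (0.76), which places it among the reversals.

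**Figure D4:**
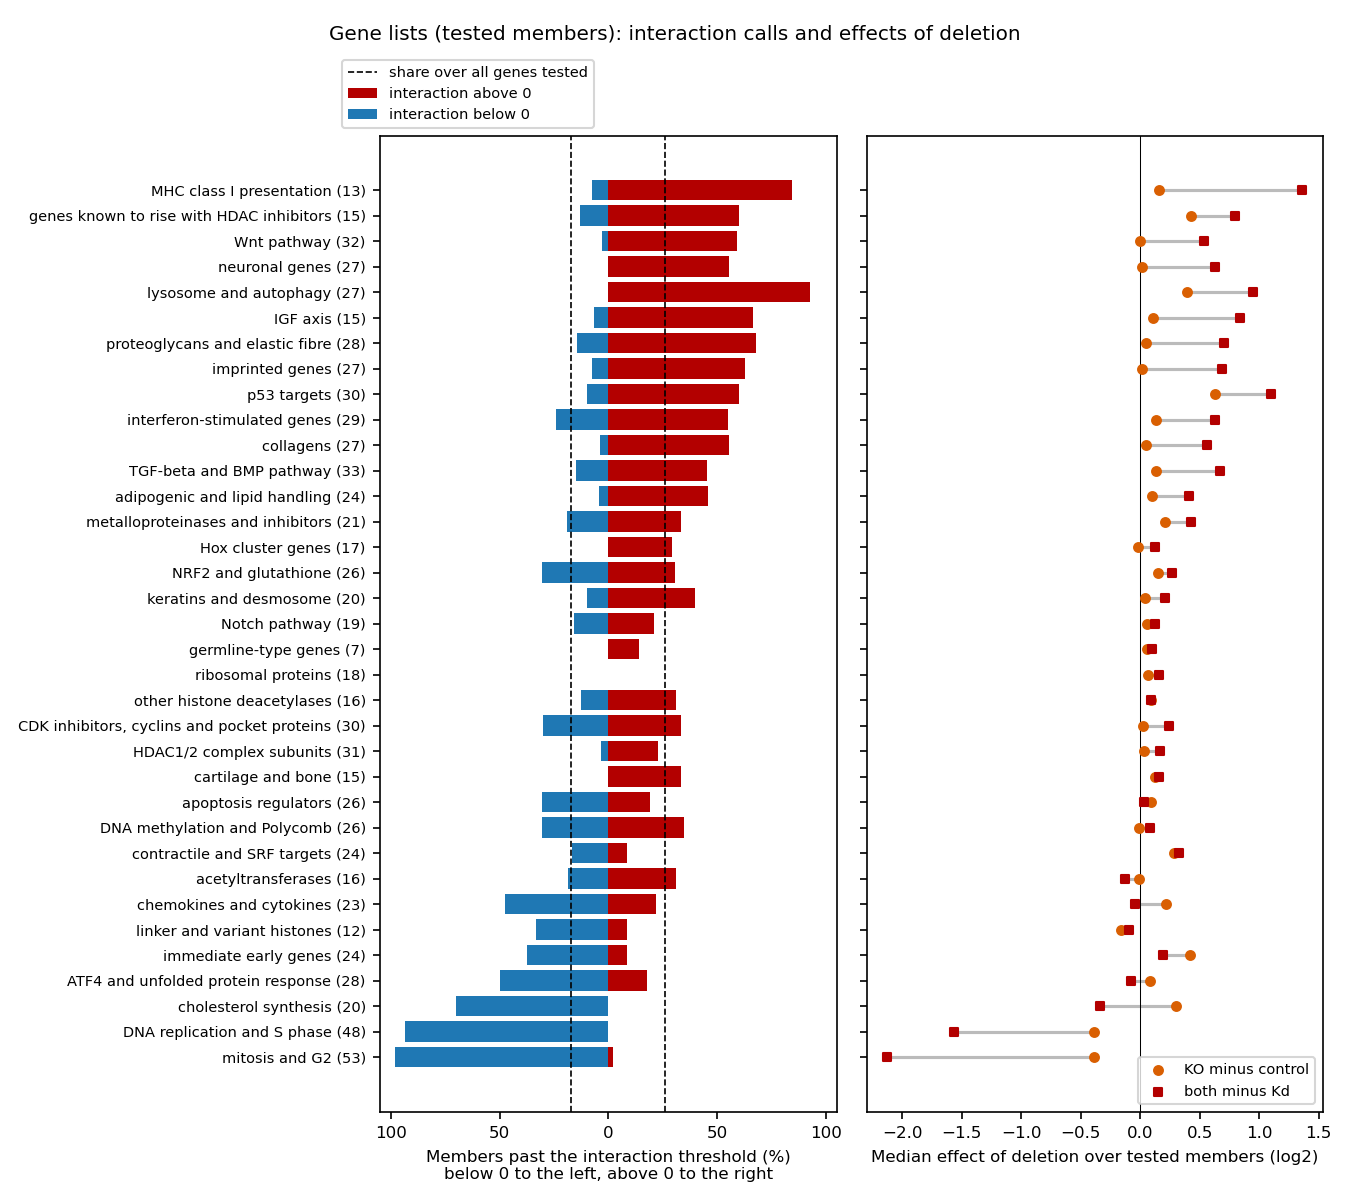
Left, share of the tested members of each gene list past the interaction threshold (percent), below 0 to the left and above 0 to the right, with dashed lines at the shares over all genes tested (17.2% and 25.8%). Right, median effect of Hdac1 deletion over the tested members (log2) in scrambled cells (circles) and knockdown cells (squares). Mitosis, replication, MHC class I and lysosome genes show the longest bars.

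The lowest interaction among the genes named was that of S100a4, a calcium-binding protein of fibroblasts. It was measured at 20340, 20850 and 20740 in control, 21360, 25310 and 25920 in KO, 15440, 14340 and 14680 in Kd, and 849, 1156 and 839 with both. KO lay above control, Kd below it, and the arrays with both far below all others, with an interaction of -4.18 ± 0.15 (adjusted p = 4.36e-12). Styk1, a kinase-like membrane protein, had -2.90 ± 0.13, Ifi202b, an interferon-inducible DNA sensor, -2.83 ± 0.29, and Lrr1, a ubiquitin ligase adaptor, -2.75 ± 0.20. Ccl2, a chemokine for monocytes, was measured at 2010, 2427 and 2627 in control, 2330, 2856 and 2809 in KO, 1524, 1310 and 1409 in Kd, and 313, 429 and 311 with both. Knockdown alone gave -0.72, deletion alone gave 0.18 and did not pass the test (adjusted p = 0.355), and the interaction was -2.16 ± 0.19.

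In a smaller number of genes a single effect was undone when the other perturbation was added. Cxcl3, a chemokine for neutrophils, was measured at 22.4, 21.2 and 21.3 in control, 22, 18.9 and 23.5 in KO, 528, 433 and 540 in Kd, and 41.8, 48 and 40.9 with both. It rose by 3.77 on knockdown alone and by 0.67 on knockdown in tamoxifen-treated cells, an interaction of -3.10 ± 0.14. Lmcd1, a LIM domain protein, rose on knockdown alone by 2.40 and not in tamoxifen-treated cells (-0.34, adjusted p = 0.21), and its interaction was -2.73 ± 0.31. On the deletion axis these 2 genes count as gained decreases, and the group that stood apart was Kd. Ndnf, a secreted neuronal factor (2.55 ± 0.23), and Hoxa5, a homeobox gene (1.14 ± 0.12), had the mirror pattern, with a fall on knockdown alone (-1.61 and -0.90) that did not appear with both. C1qtnf3, a secreted collagen-like protein, fell on knockdown alone (-2.56) and rose on deletion alone (1.10), and its interaction was 3.25 ± 0.30.

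Buffered effects of deletion were present in scrambled cells and absent or smaller in knockdown cells. Of the 219 lost effects 179 were rises on deletion alone and 40 were falls. Over all genes deletion alone raised 2617 and lowered 623, a split close to that of the lost effects. Foxs1, a forkhead factor of perivascular cells, was measured at 89.3, 154 and 162 in control, 463, 601 and 662 in KO, 301, 276 and 209 in Kd, and 271, 276 and 364 with both. KO was the highest group, Kd and both overlapped, and control was lowest. Deletion gave 1.99 in scrambled cells and 0.20 in knockdown cells (adjusted p = 0.359), an interaction of -1.79 ± 0.27. Il11, a cytokine of the interleukin 6 family, was measured at 179 to 305 in control, 762 to 891 in KO, 158 to 200 in Kd and 174 to 222 with both. The 3 groups other than KO overlapped, and the interaction was -1.63 ± 0.21. Fam110c, a spindle pole associated protein, had -1.87 ± 0.17 and Rnd1, a small GTPase, -1.34 ± 0.33, with control replicate 1 of Rnd1 at 67.8 and the other 2 control arrays at 169 and 178. Among the 40 falls that were lost were Arhgap28, a GTPase activator (1.33 ± 0.21), Bcl11b, a zinc finger factor (1.03 ± 0.16), and Pcdhb21, a protocadherin (1.03 ± 0.18).

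Weakened effects numbered 23 below 0 and 4 above. Siglecg, a sialic acid receptor of lymphocytes, was measured at 88.6, 110 and 84.5 in control, 386, 451 and 495 in KO, 104, 111 and 88.4 in Kd, and 159, 120 and 141 with both. Its rise of 2.06 on deletion alone shrank to 0.41 in knockdown cells. Cxcl5, another neutrophil chemokine, changed by -2.14 on deletion alone, -1.16 on knockdown alone and -2.06 with both, where the sum would be -3.30, so that its interaction was 1.24 ± 0.22. Olfml3, an olfactomedin-like matrix protein, changed by -1.85, -1.06 and -1.98 in the same order (0.94 ± 0.16). Klf5, a Krüppel-like factor, changed by -1.37 on deletion alone and -0.69 in knockdown cells, a difference that did not pass on the linear scale (adjusted p = 0.0996). Fgf2, Cd55 and Sema7a had smaller rises in knockdown cells than in scrambled cells, with interactions of -0.74, -0.93 and -0.62. That of Sema7a did not pass with array weights or on the linear scale (adjusted p up to 0.0666).

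Opposite signs of the deletion effect were found in 244 genes, of which 91 turned from a fall to a rise and 153 from a rise to a fall. Deletion alone raised 2617 genes and lowered 623. Falls thus made up a larger part of the reversals than of all deletion effects in scrambled cells. Acan, the cartilage proteoglycan aggrecan, was measured at 292, 379 and 374 in control, 99.8, 85.6 and 129 in KO, 409, 416 and 358 in Kd, and 1916, 1820 and 1701 with both. KO was lowest, the arrays with both were highest and control and Kd overlapped. The deletion effect was -1.60 in scrambled cells and 2.16 in knockdown cells. Mest, an imprinted hydrolase, went from -1.26 to 2.46, and Abi3bp, a matrix protein, from -1.72 to 1.52. Dlk1, an imprinted Notch ligand homologue, was measured at 4450, 4265 and 4054 in control, 2855, 3014 and 3526 in KO, 1233, 1196 and 1189 in Kd, and 8629, 9288 and 9026 with both. Each single perturbation lowered it (-0.45 and -1.80), and the combination raised it above control by 1.07.

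Reversals from a rise to a fall included Nqo1, a quinone reductase controlled by NRF2. It was measured at 1139, 1222 and 1027 in control, 1623, 1597 and 1809 in KO, 541, 480 and 443 in Kd, and 75.7, 154 and 139 with both. The 4 groups did not overlap, and the deletion effect was 0.56 (adjusted p = 0.0348) in scrambled and -1.91 in knockdown cells. Acta1, skeletal muscle actin, went from 0.65 to -2.43, Plaur, the urokinase receptor, from 0.50 to -2.07, and Aldh1a7, an aldehyde dehydrogenase, from 1.56 to -0.91. Tslp, an epithelial cytokine, rose by 1.04 on either single perturbation and stood at 0.13 with both, and Fosl1, an AP-1 subunit, went from 0.54 to -1.21. Among 24 immediate early genes 2 were above 0, Nr4a3 (1.26) and Maff (0.58, named after its value was seen), and 9 were below. The shares over all genes were 25.8% and 17.2%. The count below 0 was 14 with quantile normalization and 7 on the linear scale.

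Of the 35 lists, cholesterol synthesis held the most reversals. Of 20 genes tested, deletion raised 11 and lowered 0 in scrambled cells (over all genes 19.6% and 4.66%). In knockdown cells it raised 2 and lowered 15 (over all genes 42.9% and 20.5%). Knockdown alone lowered 8, where 3.04% of all genes fell, and knockdown in tamoxifen-treated cells lowered 20, where 20.6% of all genes fell. The interaction was below 0 for 14 and above 0 for 0, where over all genes 17.2% were below and 25.8% above. Of the 14, 8 were sign reversals, and the median effect of deletion was 0.30 and -0.34 in the 2 backgrounds. Idi1, isopentenyl diphosphate isomerase, was measured at 6585, 7411 and 6826 in control, 8296, 9957 and 9964 in KO, 4888, 4765 and 5055 in Kd, and 1830, 2531 and 2107 with both. The 4 groups did not overlap, KO was highest and the group with both lowest, and the interaction was -1.62 ± 0.15. Fdft1, squalene synthase, went from 0.32 to -1.04. Lss, lanosterol synthase, had -2.47 ± 0.28 on its brightest probe set and -0.84 on another, and Stard4, a sterol carrier, -1.63 ± 0.14.

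Of 28 genes of ATF4 and the unfolded protein response 14 were below 0 and 5 above, against 17.2% and 25.8% of all genes. Trib3, a pseudokinase, had -1.74 ± 0.26, Slc7a11, the cystine transporter, -1.72 ± 0.21, and Psph, the last enzyme of serine synthesis, -1.05 ± 0.13. The 5 above 0 were Dnajb9, Ppp1r15a, Pdia4, Edem1 and Creld2, between 0.27 and 0.48, named after their values were seen.

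Few partners of the 2 deacetylases passed the threshold. Of 31 subunits of their complexes 7 were above 0 and 1 below, Chd3, a NuRD helicase (-0.73 ± 0.18), and the median was 0.06 (25.8% called, against 43% of all genes). Sin3a, the scaffold of the Sin3 complex, was measured at 672, 616 and 640 in control, 483, 585 and 763 in KO, 699, 674 and 670 in Kd, and 1037, 1251 and 1062 with both (0.79 ± 0.17). With quantile normalization the median of this list was -0.011, with 6 above 0 and 8 below. Hdac3, the third class I deacetylase of the set, had 0.26 ± 0.10 at an adjusted p of 0.0442, which was over the threshold in 12 of 24 alternatives. Hdac6, a cytoplasmic deacetylase, had 1.47 ± 0.14, Hdac11 1.36 ± 0.17 and Sirt5, a mitochondrial deacylase, -1.35 ± 0.16. Ezh2, the Polycomb methyltransferase (from 2012, 2105 and 2026 in control to 801, 1079 and 839 with both), and Uhrf1, which guides maintenance DNA methylation (-1.59 ± 0.17), were below 0, and Tet1, a DNA demethylase, was above (1.44 ± 0.19). Of 18 ribosomal protein genes 0 passed the interaction threshold in limma and 1 at an unadjusted p under 0.05, with a median of 0.09.

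The other lists held calls in both directions or few calls, where over all genes 25.8% were above 0 and 17.2% below. Several of their shares are near these. Among 26 NRF2 and glutathione genes 8 were above 0 and 8 below, among 21 metalloproteinases and their inhibitors 7 and 4, among 23 chemokines and cytokines 5 and 11, and among 26 apoptosis regulators 5 and 8. The chemokine list held 1 gene that passed the filter only through the arrays with both, and it was called above 0. Among 24 contractile genes 2 were above and 4 below, among 19 Notch pathway genes 4 and 3, and among 20 keratins and desmosome genes 8 and 2. Of 15 cartilage and bone genes 5 were above 0 and 0 below, of 17 Hox genes likewise 5 and 0, and of 7 germline-type genes 1, Cox6b2. Of 15 genes that HDAC inhibitors are known to raise, 9 were above 0 and 2 below. Among 16 acetyltransferases 5 were above and 3 below, among 16 other deacetylases 5 and 2, among 26 DNA methylation and Polycomb genes 9 and 8 and among 12 linker and variant histones 1 and 4. The balance of several of these lists depends on the scaling. With quantile normalization the acetyltransferases had 5 above 0 and 7 below, the contractile genes 2 and 8, DNA methylation and Polycomb genes 8 and 10, Notch pathway genes 4 and 5, other deacetylases 4 and 4, NRF2 and glutathione genes 8 and 9, and CDK inhibitors, cyclins and pocket proteins 10 and 12.

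The Hdac1 +/+ cells with tamoxifen did not always resemble the control group. Igf2 was measured at 886, 723 and 495 there, Mgst1 at 521, 484 and 410 and Sfrp1 at 653, 456 and 484, all above the 9 arrays of control, KO and Kd and below the 3 with both. Acan was measured at 1124, 1518 and 1161 and Nqo1 at 178, 277 and 221 in these cells. Bex1, at 32.7, 37.8 and 28.8, and Itih5, at 25.1, 24.9 and 21.8, lay with control, KO and Kd. These arrays are in no term of the interaction.

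Markers of other cell types were read beside these lists, as summed intensities per array over the markers tested. The fibroblast sum, over 10 of 10 markers, lay between 203100 and 236700 on all 15 arrays and is made up mostly of Vim and the collagens. Its members moved apart, since S100a4 averaged 20640 in control and 948 with both, and Pdgfra, a fibroblast receptor, averaged 1138 in control, 689 in KO and 1658 with both (1.39 ± 0.21). The pericyte and smooth muscle sum, over 9 of 9 markers, was 59070 to 63000 with both and 41560 to 54660 on the other arrays. It is made up mostly of Acta2 and Cnn1, whose interactions (-0.01 and 0.008) did not pass. Of its 9 members 5 had an interaction above 0 and 1, Cspg4, below (-0.87). The skeletal muscle sum, over 7 of 8, was 285 to 305 with both and 141 to 243 elsewhere. The endothelial sum, over 3 of 10, was 318 to 391 with both and 121 to 192 elsewhere, and the other endothelial markers were not tested. The neuron and glia sum, over 4 of 8, was 2161 to 2446 in control, 1693 to 2230 in KO, 5414 to 5882 in Kd and 7351 to 8621 with both. The macrophage sum, over 5 of 10, was 399 to 605 in KO, 344 to 520 with both and 353 to 377 in control. The epithelial sum, over 6 of 10, was 889 to 1029 with both, 731 to 908.5 in KO, 603 to 710 in Kd and 419 to 539.5 in control, and overlapped only between KO and both. The epithelial sum too hides opposite members. Dsp, desmoplakin, averaged 16.7 in control and 632 with both. Krt19, a keratin, averaged 340.5 in control, 675 in KO and 223 with both. The interactions of Epcam, Cdh1, Krt8 and Krt5 did not pass. The adipocyte sum rested on 1 of 6 markers. The part of any admixed cell type in the results was not tested, and in bulk samples fewer cells of a type and less RNA per cell cannot be told apart.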

How the data were processed

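Gene expression in 15 samples of primary male mouse embryonic fibroblasts was measured on Affymetrix Mouse 430 2.0 arrays, 5 groups of 3 by title. The deposited values are linear intensities per probe set. How the authors summarised the probes, corrected background and scaled the arrays is not given in the sources consulted, and a correction that differs between arrays would move the balance of higher and lower calls. The number of arrays limits the precision.

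Of 45037 probe sets, GEO's platform annotation gives 1 symbol for 34945, several for 932 and none for 9160. Of those with 1 symbol 34741 are in the RefSeq table, where 0 symbols changed. Probe sets had to lie above the 40th percentile of an array for 3 or more arrays, and each gene was read from its brightest one, which left 13382 genes of 18193. limma 3.58.1 (R 4.3.3) was fitted to log2(intensity + 16) over all 15 arrays with 1 term per group, p-values were adjusted by Benjamini-Hochberg over all genes tested for each contrast, and the threshold was 0.05. Figures used Python 3.11.15 with matplotlib 3.10.9. The fit was also run on simulated data with independent noise for each gene and no shift shared across an array. That run therefore does not bear on such shared shifts.

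The 35 gene lists (1006 entries, 847 tested) and the 8 marker lists, like the design itself, were chosen with earlier results of these data known, and no list was tested as a set. Genes named are Hdac1, Hdac2, Hdac3, a set of cell cycle regulators, the highest and lowest interactions, the largest of each class and of each group standing apart, and the largest called members of each list. The interaction was recomputed under 25 alternatives of samples, variance model, filter, probe set, scaling, pseudocount, scale and omitted arrays.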

Additional observations from a re-analysis of the deposited data

Results flagged for a closer look

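The effect of deletion differed between scrambled and knockdown cells by the test of the interaction for 3453 genes above 0 and 2296 below, and 244 of these had opposite signs in the 2 backgrounds. Among the reversals named, the interaction was 3.75 for Acan, 3.72 for Mest, 3.33 for Dlk1 and 3.24 for Abi3bp. It was -2.47 for Nqo1, -2.48 for Aldh1a7, -2.58 for Plaur and -3.08 for Acta1.

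A signal above control was found in the Hdac1 +/+ cells with tamoxifen, which are in no term of the interaction. Their mean intensity was 701.2 for Igf2, 471.9 for Mgst1 and 530.6 for Sfrp1, each above every control array.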

How the results depend on the processing

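Of the 5749 genes called, between 86.7% (with array weights, whose estimation stopped before it converged) and 100% (filter at the 60th percentile, of those still tested) passed with the same sign under the 25 alternatives, and calls with the opposite sign numbered 7 with the mean of probe sets, 2 without probe sets that may cross-hybridise, 1 on the linear scale and 0 under the others. Quantile normalization gave 3455 genes below 0, 386 reversals and 913 genes with 1 single effect opposed (560 in the deposited scale), and centring gave 368 reversals. The median interaction was then -0.012 and -0.018, in place of 0.06, and the list medians of complex subunits (-0.011 and -0.015), cartilage (-0.037 and -0.028), DNA methylation and Polycomb (-0.043 and -0.06), apoptosis regulators (-0.043 and -0.059, and -0.008 on the linear scale) and other deacetylases with quantile normalization (-0.055) fell below 0, as did the macrophage markers (-0.011 and -0.038), and that of contractile genes rose to 0.009 on the linear scale. Array weights left 93 reversals and 108 buffered genes, and the linear scale 69 genes with both single effects opposed (121 on the log scale). Leaving out 1 array gave 3083 to 3940 genes above 0 and 1958 to 2808 below, 4665 to 5307 with a larger effect in knockdown cells, 183 to 428 buffered, 177 to 335 reversed, 4350 to 4796 in synergy, 436 to 808 with 1 single effect opposed and 72 to 183 with both. Without KO replicate 1 there were 428 buffered genes and 183 with both single effects opposed, and without control replicate 1 there were 72 of the latter. Same-numbered arrays did not deviate together (r from -0.161 to 0.106), so the numbers were not taken to pair the samples, and with the replicate number as a block 3318 genes were above 0 and 2206 below. Of the 183 named genes past the threshold, 174 kept their sign and call throughout, and Cd68, Cdkn1b, Hdac3, Hoxa3, Igfbp5, Kat6b, Klf5, Myog and Sema7a lost their call in at least 1 alternative. The interactions of the targets, never past the threshold, changed sign to -0.004 (centred) and -0.01 (linear) for Hdac2 and 0.033 (without replicate 1 of the group with both, with -0.39 to 0.033 over the omissions) for Hdac1. For these changes the cause was not tested.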
